A study of Mus musculus with 13 samples.

Results

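The regions described here carried the histone mark H3K4me3 in 3 mouse pre-T lymphoblastic cell lines and had no listed H3K4me3 peak in the myeloid line 961C. Peaks of the 4 H3K4me3 lists that overlapped by at least 1 bp were merged into 25059 regions, of which 1433 (5.72%) had peaks of the SCL-LMO1 line, 748T and 106A and none of 961C. They are called pre-T regions below. The 9463 merged regions with a peak of every line are the comparison and are called regions of all 4 lines. The pre-T regions were chosen by the H3K4me3 lists themselves, so their H3K4me3 width, height and position are described without a test. H3K27me3 and NP23 come from other libraries and took no part in the choice.

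Lines 748T and 106A came from precursor T lymphoblastic disease (pre-T LBL) of different mice that expressed the NUP98-PHF23 fusion (NP23), on strain C57BL/6. Line 961C came from an AML (acute myeloid leukaemia) of another NP23 mouse of that strain. The SCL-LMO1 line, labelled 7298/2, came from a pre-T LBL with SCL-LMO1 in place of NP23, in a hybrid of C57BL/6 and C3H, and is labelled the control line. All lines grew without cytokines, and each had 1 library per mark. The sources used here give neither the promoter of each transgene, nor the ages of the mice, nor whether a line is 1 clone. Genes in the regions were not analysed here, so the labelled cell types were not checked against marker genes. Oncogene, strain and line differ together in the SCL-LMO1 line, and lineage cannot be told apart from the single library that stands for the myeloid cells.

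H3K4me3 sits at the start sites of genes that are active or ready to be transcribed, and stretches of it that run over many kilobases are known to mark genes that define a cell's identity. H3K27me3 is laid down by Polycomb repressive complex 2 and keeps developmental and lineage genes silent in cells where they are not used. A start site can lose H3K4me3 and gain H3K27me3, or it can carry neither mark. Pre-T LBL cells are arrested at an early step of T cell development, and AML cells at a step of myeloid development. Regions marked in the first and not in the second are therefore a place to look for chromatin that differs with lineage.

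The H3K4me3 lists held 16324 to 17696 peaks and covered 20.4 to 21.9 Mb per line. Read totals are not in the lists, so depth is unknown. The tallest point of the median H3K4me3 peak was 38 reads in 961C, 76 reads in 748T, 76 reads in the SCL-LMO1 line and 97 reads in 106A. The H3K27me3 lists held 8412 peaks in 748T, 5600 in 106A, 4875 in the SCL-LMO1 line and 19469 in 961C. Heights are given as listed, with reads taken as their unit, and are not scaled between libraries. Comparisons of height use the percentile of a peak among all peaks of its list. In these bulk chromatin samples, fewer marked cells and less mark per cell cannot be told apart.

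Most pre-T regions were narrow, low H3K4me3 sites, and a small part were among the broadest domains of the pre-T lines. They took in 1601 peaks of 748T (9.13% of its list), 1585 peaks of 106A (9.71%) and 1518 peaks of the SCL-LMO1 line (8.62%). Of the 10896 regions with peaks in all 3 pre-T lines, the 1433 without 961C made up 13.2% (95% interval 12.5 to 13.8). Here and below, ranges after a share are exact 95% Clopper-Pearson intervals and reflect counting error alone. The 13.2% is the rule itself.

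In 748T the H3K4me3 of a pre-T region covered a median of 746 bp, with quartiles of 371 and 1268 bp. In 106A it covered 771 bp, with quartiles of 381 and 1473 bp. In the SCL-LMO1 line it covered 864 bp, with quartiles of 471 and 1482 bp. The 3 lines were close to each other and all lay below the regions of all 4 lines, whose medians were 1544 bp in 748T, 1679 bp in 106A and 1624 bp in the SCL-LMO1 line. The H3K4me3 of a pre-T region was a single peak in 94.3% of cases in the SCL-LMO1 line, 90.7% in 106A and 89.6% in 748T. In regions of all 4 lines this held for 80.9% to 85.8%.

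The gap narrowed towards the broad end and was gone in the top few percent. The 90th percentile of covered bases was 2153 bp against 2729 bp in 748T, 2540 against 3061 bp in 106A and 2424 against 2861 bp in the SCL-LMO1 line. At least 4 kb was covered in 2.51% of pre-T regions by 748T, in 3.98% by 106A and in 3.35% by the SCL-LMO1 line. The same shares of regions of all 4 lines were 2.41%, 3.69% and 2.73%. The 90th percentile of the merged width was 3078 bp for pre-T regions and 3568 bp for regions of all 4 lines. The latter width includes the 961C peak. All lists, that of 961C included, were also cut to the taller 50% of their peaks, and the rule then gave 485 regions. These 485 are not a subset of the 1433, because lower 961C peaks were removed too and no longer excluded a region. At them the order of the medians turned in a pair of lines. The values were 1893 against 1807 bp in 106A and 1789 against 1770 bp in the SCL-LMO1 line.

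By height, the median pre-T region stood at percentile 32.6 of its list in 748T, at 29.7 in 106A and at 35.5 for the SCL-LMO1 line. Regions of all 4 lines stood at 71.1, 69.0 and 71.5. In reads, the median maximum was 36 in 748T, 41 in the SCL-LMO1 line and 43 in 106A. Of the pre-T regions, 314 in the SCL-LMO1 line (21.9%), 303 in 106A (21.1%) and 293 in 748T (20.4%) were taller than the median peak of that list. The tallest 10% of each list supplied 21, 30 and 25 of them in that order. The second track of the lists, which they do not name, was alike in both sets, with medians of 0.206 and 0.227 reads in 748T, 1.52 and 1.51 reads in 106A and 1.10 reads in both sets in the SCL-LMO1 line.

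**Figure D1:**
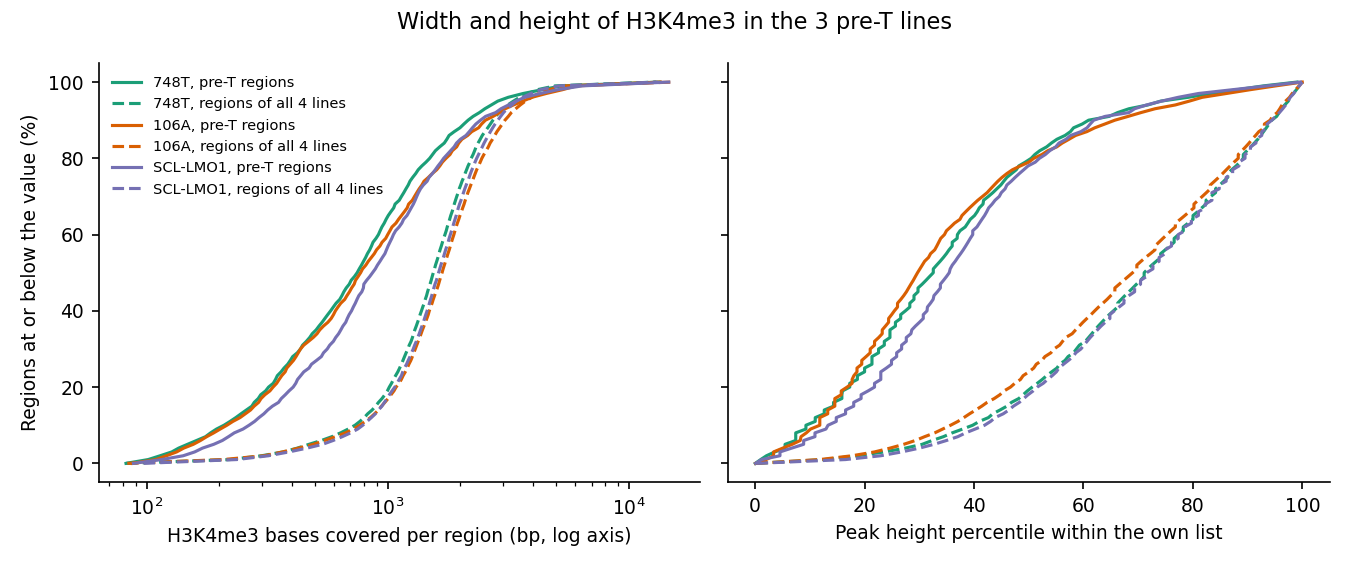
Cumulative share of regions (y axis, percent) against the H3K4me3 bases covered per region (left, bp, log axis) and the height percentile within the list (right). Solid lines are the 1433 pre-T regions and dashed lines the 9463 regions of all 4 lines, coloured by pre-T line. In the left panel the solid curves lie to the left of the dashed ones over most of their range in all 3 lines. Medians are 746 to 864 bp against 1544 to 1679 bp. They meet and cross the dashed ones in the top few percent, with 4369 against 4176 bp at 98% of regions in 748T. In the right panel they stay to the left, with percentiles of 74.1 against 97.4 at 95% of regions in 748T.

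The share of pre-T H3K4me3 without a 961C peak fell with height and was U-shaped in width. Among regions of the 3 pre-T lines with a mean height percentile under 20, 276 of 408 (67.6%, 62.9 to 72.2) had no 961C peak. The share was 45.3% from 20 to 40, 14.1% from 40 to 60 and 3.48% from 60 to 80. At 80 and above it was 1.07% (33 of 3083). The 961C list has the lowest heights of the 4, and the part of that in the missing low peaks was not tested. By merged width the share was 54.8% under 0.5 kb, 38.2% from 0.5 to 1 kb, 11.3% from 1 to 2 kb, 5.64% from 2 to 4 kb and 10.3% at 4 kb or more.

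By bases under pre-T peaks, which leaves out the width of 961C itself, 246 of 3894 regions of 2 to 4 kb had no 961C peak (6.32%, 5.57 to 7.13). The share was 11.2% (51 of 454, 8.48 to 14.5) from 4 to 6 kb and 19.8% (16 of 81, 11.7 to 30.1) from 6 to 8 kb. Of the 37 regions of 8 kb or more, 9 had none (24.3%, 11.8 to 41.2). The share was thus higher again among the broadest pre-T domains, and the intervals of the classes from 4 kb up overlapped. It comes from the H3K4me3 lists that the rule used and is described without a test.

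**Figure D2:**
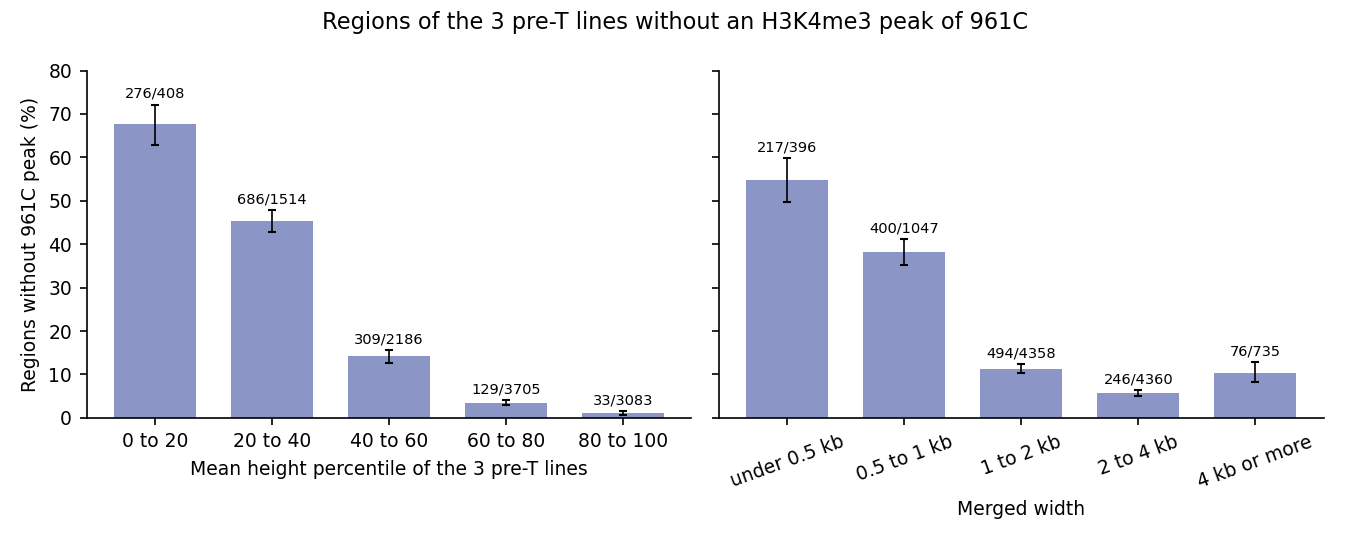
Share of regions of the 3 pre-T lines that had no 961C H3K4me3 peak (y axis, percent) by mean height percentile (left) and merged width (right). Bars carry exact 95% intervals and the counts behind them. The share falls from 67.6% in the lowest height class to 1.07% in the highest.

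The 3 pre-T lines shared less of each pre-T region than of a region of all 4 lines. At 1410 of the 1433 regions at least 1 base lay under peaks of all 3 lines, and 23 regions were joined only through overlaps of pairs. The bases common to all 3 lines were a median 47.8% of all bases under pre-T peaks (quartiles 30.3% and 65.4%), against 74.5% (63.9% and 82.7%) in regions of all 4 lines. Across the 1433 regions the rank correlation of covered bases was 0.71 between 748T and 106A, 0.74 between 748T and the SCL-LMO1 line and 0.72 between 106A and the SCL-LMO1 line. Across regions of all 4 lines it was 0.87, 0.89 and 0.87. For maximum height the same pairs gave 0.67, 0.67 and 0.63 in pre-T regions and 0.82, 0.71 and 0.61 in regions of all 4 lines. By height, 106A and the SCL-LMO1 line were thus not less alike in pre-T regions. These correlations are across regions of the same libraries and describe them only. The line with the most bases was the SCL-LMO1 line at 610 pre-T regions (42.6%), 106A at 505 (35.2%) and 748T at 318 (22.2%).

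At the edge of the rule stood regions next to a 961C peak. The gap to the nearest H3K4me3 peak of 961C had a median of 27.4 kb and quartiles of 8.51 and 72.9 kb. It was at most 1 kb at 114 pre-T regions (7.96%) and over 100 kb at 19.7%. The nearest were chromosome 6 from 30254671 to 30255022, with a gap of 27 bp, and chromosome 1 from 132530392 to 132530830, with 28 bp. The next 3, on chromosomes 14, 2 and 11, had gaps of 75, 84 and 87 bp. Those 5 regions were 352 to 1582 bp wide and stood at mean height percentiles of 9.83 to 40.6.

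Just outside the rule were regions of all 4 lines that 961C barely touched. In 35 of the 9463 (0.370%) 961C covered under 10% of the merged region. The least covered was chromosome 2 from 84678537 to 84683001, where 961C had 97 bp at a height of 9 reads and the pre-T lines had 2258 to 4465 bp at heights of 95 to 116 reads. The next 4, on chromosome X (starting at 156135107 and 45694110), chromosome 3 (86720471) and chromosome 7 (134757690), had at most 184 bp of 961C at heights of 7 to 20 reads. At this edge 1 short 961C peak decided on which side of the rule a domain fell.

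The 10 widest pre-T regions were 7880 to 14639 bp across, and 4 of them carried H3K27me3 in 961C. The widest, chromosome 11 from 52086405 to 52101043, was covered for 14639 bp in the SCL-LMO1 line, 10216 bp in 748T and 5912 bp in 106A. Its maxima were 133, 140 and 122 reads in that order. The SCL-LMO1 line marked all of it and 106A marked 40.4%. Its 4 H3K27me3 peaks in 961C covered 1899 bp (13.0% of the region), and the nearest 961C H3K4me3 peak lay 6.91 kb away.

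The second widest, chromosome 12 from 109231156 to 109244880, was the most even of the 10. H3K4me3 covered 99.3% of it in the SCL-LMO1 line, 98.5% in 106A and 97.4% in 748T, each as 1 peak. A single H3K27me3 peak of 961C, 126 bp long, lay near one end, and the nearest 961C H3K4me3 peak was 77.9 kb away.

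The third, chromosome 3 from 130808719 to 130822094, was the tallest pre-T region of all by mean percentile (97.7). Its maxima were 155 reads in 748T, 196 reads in 106A and 135 reads in the SCL-LMO1 line, and 961C had neither mark in it. The nearest 961C H3K4me3 peak was 152 kb away. Next in width, chromosome 2 from 9789763 to 9802182, was second in height (97.2), with maxima of 161, 180 and 133 reads in the same order. H3K27me3 of 961C covered 470 bp of it.

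The fifth, chromosome 12 from 107813470 to 107825452, had 9762 bp in 748T, 11983 bp in 106A and 11403 bp in the SCL-LMO1 line. The sixth, chromosome 15 from 85495449 to 85505371, was covered for 9332 to 9646 bp in every pre-T line and reached 162 reads in 748T, 156 reads in 106A and 135 reads in the SCL-LMO1 line. On chromosome 13 from 19433963 to 19443174 the lines parted. H3K4me3 covered 9197 bp in 106A and 9212 bp in the SCL-LMO1 line, and 4448 bp in 4 peaks in 748T, where the maximum of 40 reads stood at percentile 35.0 of its list. The maximum of 137 reads in 106A stood at percentile 76.8 and that of 119 reads in the SCL-LMO1 line at 77.3.

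The last 3 were on chromosome 15 (97667218 to 97676213), chromosome X (39853924 to 39862760) and chromosome 9 (69605366 to 69613245). The region on chromosome 9 had 7305 bp in 748T, 7865 bp in 106A and 3086 bp in the SCL-LMO1 line. Its 4 H3K27me3 peaks of 961C covered 2744 bp (34.8%). None of the 10 held H3K27me3 of a pre-T line. The 5 tallest pre-T regions were those 3 of the widest on chromosomes 3, 2 and 15 (85495449), a region on chromosome 6 from 29684849 to 29688894 (mean percentile 94.7) and one on chromosome 18 (94.7).

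**Figure D3:**
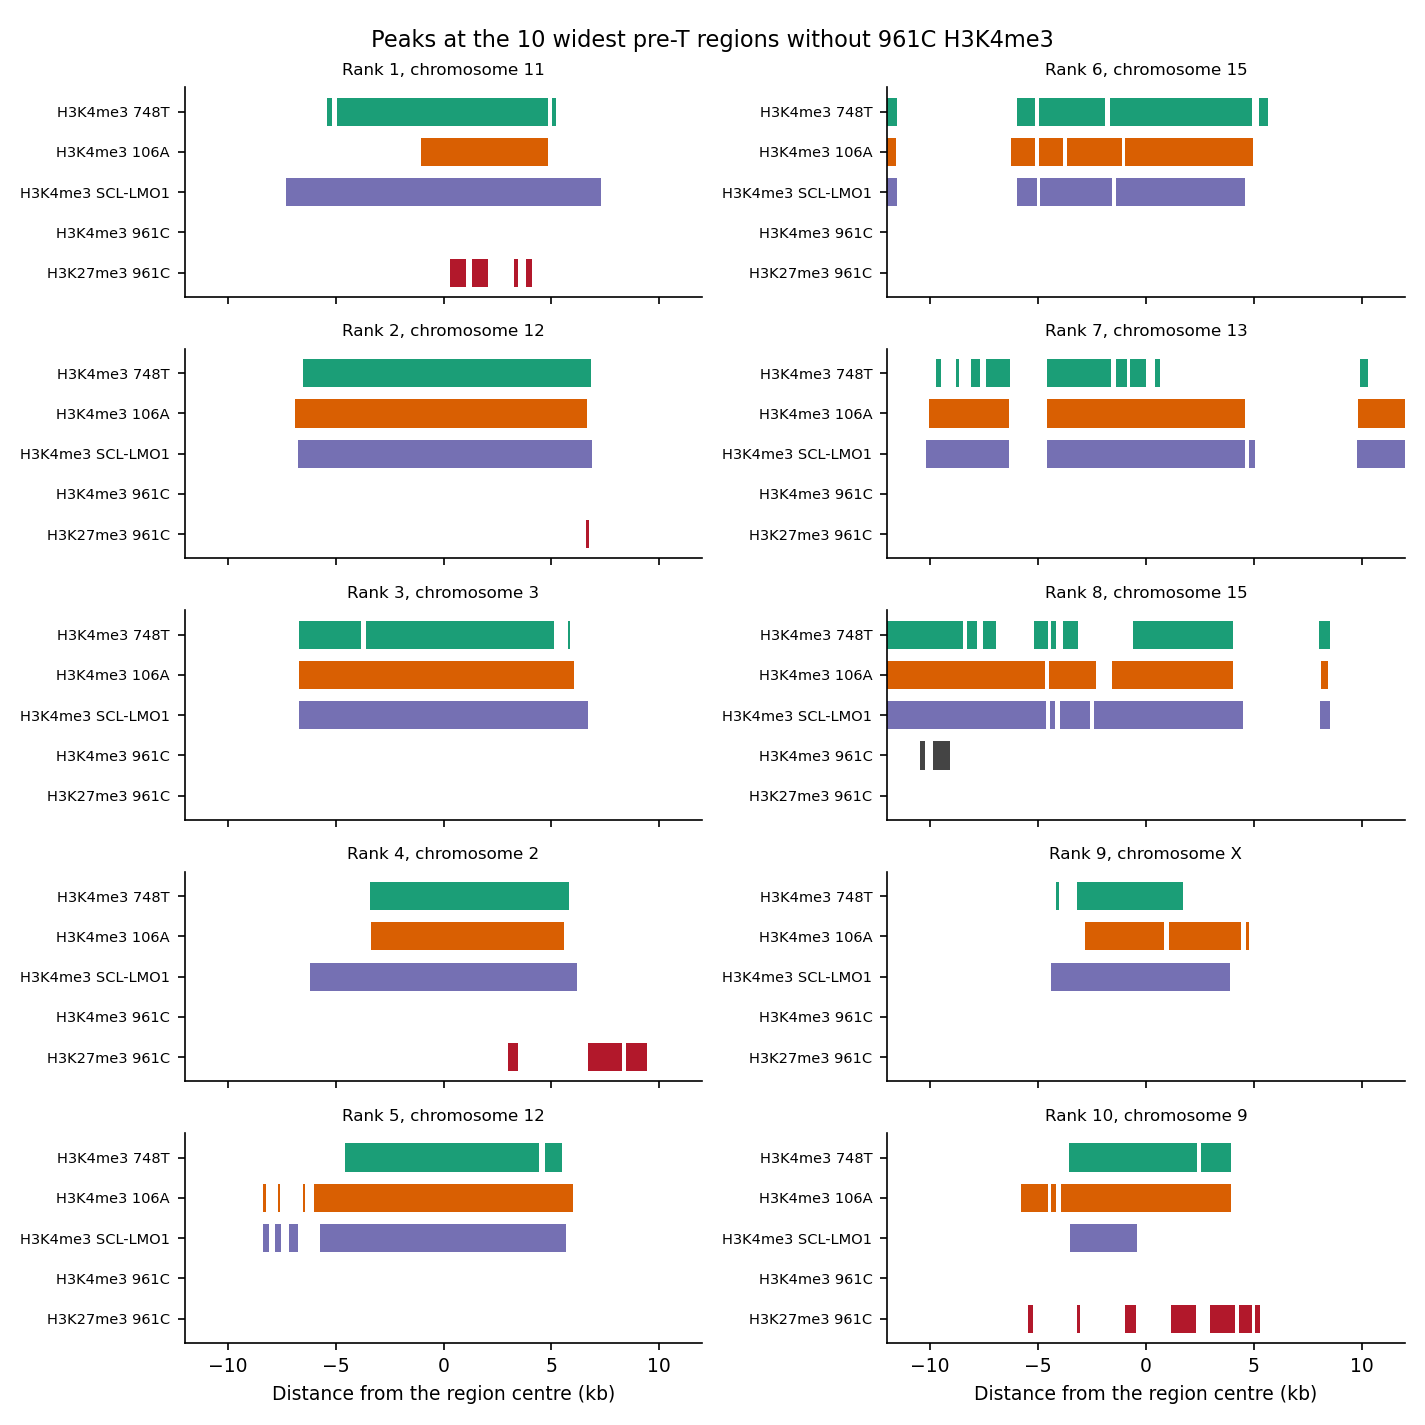
Peaks at the 10 widest pre-T regions, drawn to scale by distance from the region centre (x axis, kb) in order of width down each column. Rows are H3K4me3 of the 4 lines and H3K27me3 of 961C. The H3K4me3 row of 961C is empty inside each region, and H3K27me3 of 961C falls in the regions of rank 1, 2, 4 and 10.

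Pre-T regions lay next to each other more often than their number among all merged regions. Along the chromosome, the next merged region was also a pre-T region for 154 of 1433 (10.7%, 9.19 to 12.5), against 5.73% over all 25030 merged regions that have a next one. After a region of all 4 lines the share was 4.98% (4.55 to 5.44). The gap between such neighbours had a median of 11.2 kb and was at most 1 kb in 35 of the 154. In all, 1150 regions (80.3%) had no pre-T region as direct neighbour, 108 runs held 2, 18 held 3, 2 held 4 and 1 held 5.

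The run of 5 lay on chromosome 1 from 158868160 to 158920603. Its members were 372 to 2602 bp wide, with maxima from 16 to 94 reads in 748T, 16 to 116 in 106A and 18 to 124 in the SCL-LMO1 line, and 1 held H3K27me3 of 961C. The nearest 961C H3K4me3 peak was 219 kb away. The runs of 4 lay on chromosome 11 from 46200181 to 46219000 and on chromosome 6 from 94630774 to 94651193. Neither held H3K27me3 of 961C, and their widest members were 3727 bp each.

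Counted in fixed 1 Mb windows, the 1433 regions fell in 799 windows, and 452 of these held a single one. The fullest windows held 8. Windows were singled out after their values were seen, and full windows differed in their other regions. The window on chromosome 1 from 158000001 to 159000000 held 8, beside 6 regions of all 4 lines, and 1 of the 8 held H3K27me3 of 961C. On chromosome 2 from 122000001 to 123000000, 7 lay beside 7 regions of all 4 lines, and 3 held it. On chromosome 11 from 98000001 to 99000000, 6 lay beside 23, and 4 held it. On chromosome 3 from 130000001 to 131000000, the 8 pre-T regions were among 23 merged regions, of which 5 were of all 4 lines. They included the third widest region and 7 further ones of 1222 to 6832 bp between 130521400 and 130723311, and none held H3K27me3 of 961C.

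On chromosome 6 from 41000001 to 42000000, 7 of 28 merged regions were pre-T regions and 0 were of all 4 lines. Of these 7, chromosome 6 from 41492733 to 41496778 reached 99 reads in 748T, 110 reads in 106A and 155 reads in the SCL-LMO1 line. Chromosome 6 from 41084463 to 41090724 had 5806 bp in the SCL-LMO1 line, 1199 bp in 106A and 468 bp in 748T. On chromosome 13 from 19000001 to 20000000, 6 of 27 merged regions were pre-T regions and 1 was of all 4 lines. At 4 of the 6, 748T had the fewest covered bases. At the other 2 the SCL-LMO1 line did, with 158 and 165 bp.

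By chromosome, pre-T regions made up 4.45% of merged regions on chromosome 2 at the low end and 7.37% on chromosome 15 at the high end. As a share of regions of all 3 pre-T lines the range was 10.6% on chromosome 2 to 17.1% on chromosome 6. No main chromosome other than Y was without them.

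H3K27me3 of 961C met pre-T regions far more often than regions of all 4 lines. It was listed at 165 of 1433 pre-T regions (11.5%, 9.91 to 13.3) and at 159 of 9463 regions of all 4 lines (1.68%, 1.43 to 1.96), a ratio of 6.85. Over all 25059 merged regions the share was 4.72%. At the other 88.5% of pre-T regions 961C had a listed peak of neither mark. Regions of 1 library are not replicates, so no test was made between these shares. With only the taller 50% of H3K4me3 peaks of every list, 961C included, the rule gave 485 regions, which are not a subset of the 1433. They can hold a lower 961C H3K4me3 peak. Their share was 24.7%, against 0.397% in regions of all 4 lines under the same cut. With the 961C H3K27me3 list cut to its 4875 tallest peaks, the length of the shortest list, the shares were 6.49% and 0.719%.

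The share rose with the height of the pre-T H3K4me3. It was 2.90% (8 of 276) at mean height percentiles under 20, 5.39% from 20 to 40 and 18.4% (57 of 309) from 40 to 60. From 60 to 80 it was 36.4% (47 of 129), and at 80 or above 16 of 33 (48.5%, 30.8 to 66.5). In regions of all 4 lines the same classes gave 1.52%, 1.93%, 2.66%, 1.99% and 0.656% (0.401 to 1.01). The intervals of the 2 sets, which reflect counting error alone, overlapped in the lowest class and were apart in the other 4. Both sets were read from a single H3K27me3 library, so this is not a test between them.

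Width gave a like picture. Under 0.5 kb, 2 of 217 pre-T regions had H3K27me3 of 961C (0.922%) and so did 2 of 179 regions of all 4 lines (1.12%). From 0.5 to 1 kb the counts were 16 of 400 and 4 of 647, and from 1 to 2 kb the shares were 12.8% and 1.60%. From 2 to 4 kb they were 26.4% (65 of 246, 21.0 to 32.4) and 1.58% (1.22 to 2.01). At 4 kb or more they were 25.0% (19 of 76) and 3.95% (26 of 659). Pre-T regions with H3K27me3 of 961C had a median merged width of 2022 bp and those without it 1047 bp, and their median mean height percentiles were 55.5 and 29.9.

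**Figure D4:**
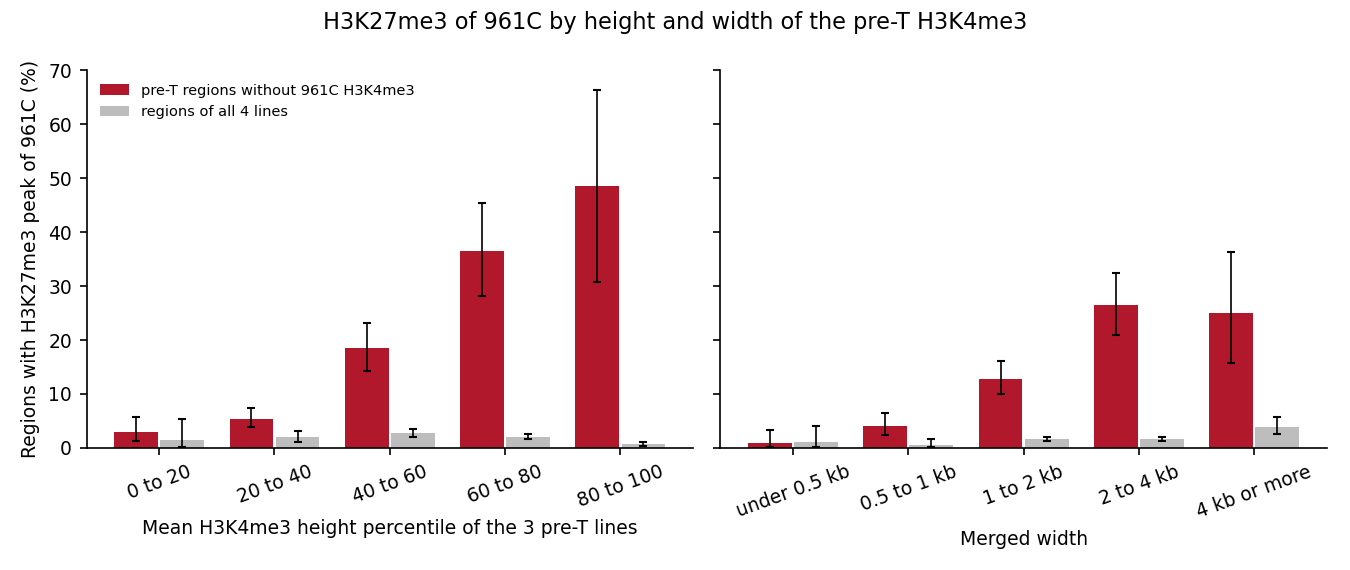
Share of regions with an H3K27me3 peak of 961C (y axis, percent) by mean height percentile of the pre-T H3K4me3 (left) and by merged width (right). Red bars are pre-T regions, grey bars regions of all 4 lines, and whiskers exact 95% intervals. The red bars rise from 2.90% to 48.5% with height, while the grey bars of the left panel stay at or under 2.66%.

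Summed over all 1433 pre-T regions, bases under H3K27me3 of 961C were densest inside the regions. All of the bases inside came from the 165 regions with such a peak. H3K27me3 peaks of 961C covered 7.47% of the bases inside pre-T regions, 3.36% of the first kilobase on either side, 2.65% of the second, 1.75% from 2 to 5 kb and 0.979% from 20 to 50 kb. For regions of all 4 lines the share was 0.476% inside and 0.960% at 20 to 50 kb, the opposite order. Flanks of close neighbours were counted for each of them.

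Where it was present, H3K27me3 of 961C covered a median of 38.3% of the pre-T region (quartiles 18.1% and 65.5%), and at 62 of the 165 it covered at least 50%. At the 159 regions of all 4 lines the median was 19.5%. Several H3K27me3 peaks fell in 89 of the 165 pre-T regions, up to 6. The 295 H3K27me3 peaks involved were wider and taller than most of their list, with a median width of 514 bp against 289 bp and a median height percentile of 76.2. The 225 peaks in regions of all 4 lines were also wider and taller than the list, with a median width of 454 bp and a median height percentile of 58.0. The peaks in pre-T regions made up 1.52% of the list and 4.19% of its peaks of 1 kb or more, and those in regions of all 4 lines 1.16% and 2.40%. The median second-track height in pre-T regions was 0.195 reads, against 0.130 over the list, and its part in the result was not tested.

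**Figure D5:**
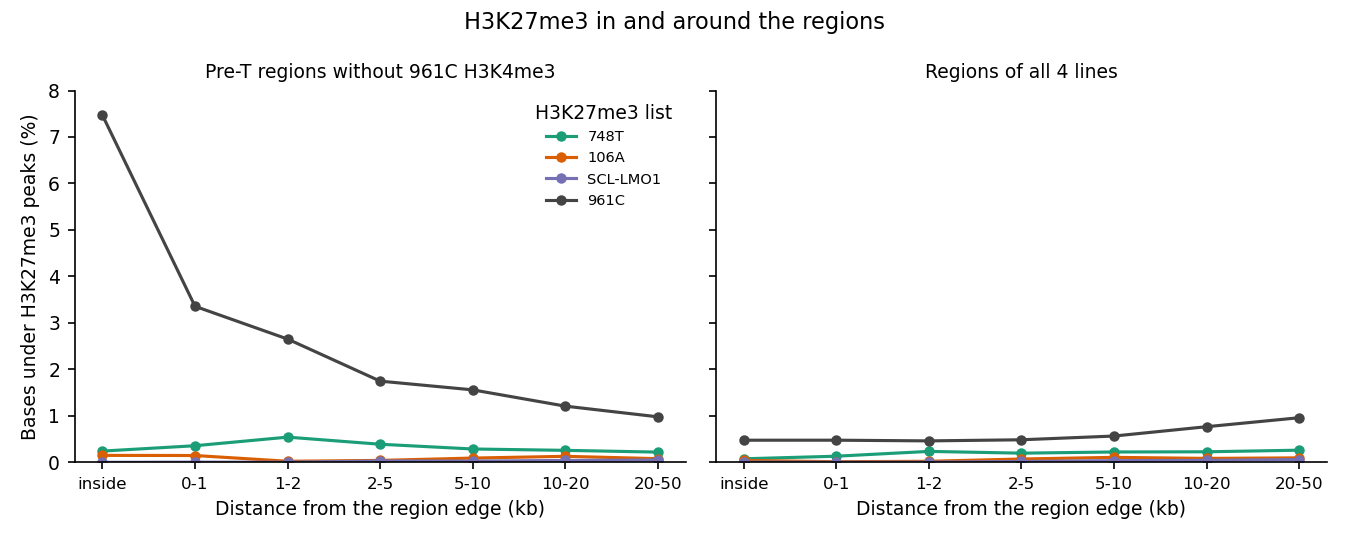
Share of bases under H3K27me3 peaks (y axis, percent) inside the regions and in bins of distance from their edges (x axis, kb), for pre-T regions (left) and regions of all 4 lines (right), by H3K27me3 list. The 961C curve falls from 7.47% inside pre-T regions to 0.979% at 20 to 50 kb, and the 3 pre-T lines stay at or under 0.542% throughout.

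The pre-T region with the most H3K27me3 of 961C was chromosome 16 from 30063185 to 30071006, where 4 peaks of up to 30 reads covered 5882 bp (75.2%). H3K4me3 there covered 5912 bp in 748T, 7443 bp in 106A and 7600 bp in the SCL-LMO1 line, and 748T also had 1 H3K27me3 peak of 234 bp. Chromosome 4 from 135699335 to 135703109 was 93.4% covered by 1 H3K27me3 peak of 961C and had H3K4me3 of 2289 bp in 748T, 3775 bp in 106A and 1723 bp in the SCL-LMO1 line. Chromosome 7 from 19678696 to 19681644 was 91.5% covered and chromosome 8 from 11475245 to 11478714 was 81.3% covered.

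The others of the 10 were chromosome 2 from 73108166 to 73113541, chromosome 5 from 121157239 to 121163219, chromosome 9 from 57678574 to 57684644 and from 69605366 to 69613245, chromosome 11 from 96323574 to 96330175, and a region of 4688 bp on chromosome 18. H3K27me3 of 961C covered 2716 to 3685 bp of each. On chromosome 2 the pre-T lines were far apart, with 5376 bp in 748T, 1104 bp in 106A and 630 bp in the SCL-LMO1 line and no base common to all 3. On chromosome 5, 6 H3K27me3 peaks met H3K4me3 of 4733 to 5760 bp.

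H3K27me3 of the pre-T lines themselves was rare at the pre-T regions. It was listed at 15 (1.05%, 0.587 to 1.72) in 748T, 5 (0.349%, 0.113 to 0.812) in 106A and at 0 of the 1433 in the SCL-LMO1 line, which allows a share of up to 0.209%. Over all merged regions the shares were 1.01%, 0.427% and 0.104%. In regions of all 4 lines they were 0.486%, 0.137% and 0.0317%. The 748T and 106A shares thus lay near the background of all merged regions, and the lists of these lines are shorter than that of 961C.

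The share of 961C H3K27me3 was not limited to regions that lack H3K4me3 in 961C. At the 352 regions with H3K4me3 of 748T, 106A and 961C and none of the SCL-LMO1 line, 44 carried H3K27me3 of 961C (12.5%, 9.23 to 16.4), so that both marks of 961C were listed there. The interval contains the 11.5% of the pre-T regions. By width the order of the sets varied, but the counts were small and the intervals of the sets overlapped in every width class. The regions without the SCL-LMO1 line had the higher share from 0.5 to 1 kb, with 5 of 70 (7.14%) against 16 of 400, and from 1 to 2 kb, with 26 of 150 (17.3%) against 12.8%. The pre-T regions had it from 2 to 4 kb, with 26.4% (21.0 to 32.4) against 12.5% (10 of 80, 6.16 to 21.8), and at 4 kb or more, with 25.0% against 3 of 16. Under 0.5 kb the counts were 0 of 36 and 2 of 217. At the 520 regions without 106A the share of 961C H3K27me3 was 3.08%, and at the 157 without 748T it was 1.91%.

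At the same 352 regions, H3K27me3 of 748T was listed at 19 (5.40%, 3.28 to 8.30), against 1.01% over all merged regions, and that of 106A at 7 (1.99%, 0.803 to 4.05), against 0.427%. H3K27me3 of the SCL-LMO1 line itself was at 2 of these 352 regions that it alone lacked (0.568%, 0.0689 to 2.04), against 0.104% over all merged regions. H3K27me3 of 106A was at 6 of the 520 regions that it alone lacked (1.15%, 0.425 to 2.49), against 0.427%. For 748T the count was 1 of 157 (0.637%, 0.0161 to 3.50), against 1.01%. For 961C at the pre-T regions the same pair of values was 11.5% and 4.72%. These lists hold fewer H3K27me3 peaks, and whether the lines differ was not tested.

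Among merged regions without 961C, H3K27me3 of 961C was at 6.14% of the 5786 regions of 1 pre-T line, 10.1% of the 2047 regions of 2 and 11.5% of the pre-T regions, which have all 3. Among merged regions with 961C it was at 4.36% of those of 961C alone, 4.68% with 1 pre-T line, 6.12% with 2 and 1.68% with 3. The pre-T regions had the highest share of these 7 classes, and the interval of the class with 2 pre-T lines (8.84 to 11.5) overlapped theirs.

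NP23 was mapped in 961C alone and had no peak in a pre-T region, while 3.46% of all merged regions held one. The rule removes all H3K4me3 of 961C, so nothing is read from this count. Near the pre-T regions, NP23 lay within 10 kb of 18 (1.26%, 0.746 to 1.98) and within 50 kb of 83 (5.79%, 4.64 to 7.13). Among the 9231 regions of all 4 lines with no NP23 peak inside, the shares were 1.20% (0.990 to 1.45) and 5.37% (4.92 to 5.85). The intervals of both sets overlapped at each distance.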

How the data were processed

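Chromatin immunoprecipitation sequencing was deposited for 13 samples of 4 cell lines, and 9 region lists were used. Input, sequenced for each line, was not analysed here. Per the labels' protocols, cells were fixed with 1% formaldehyde for 15 minutes, sonicated and sequenced with single-end reads from fragments of about 240 bp. Per the submitters' processing notes, CASAVA 1.9, BWA 0.5.9-r26 and build mm9 were used. No source used here names the peak caller. The lists, as the authors deposited them, give start (counted from 0), end, and a text field. That field holds the mean and maximum height of a first and a second track. The first was taken as the pileup of the sample. Both were taken to be in reads, and the lists do not name the second track.

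Peaks of 1 library per line were merged where they overlapped by at least 1 bp. Coordinates are printed counted from 1. Height percentiles are mid-ranks of the maximum height within a list. A region of several peaks takes its tallest peak and the sum of its covered bases. Depth is unknown, so the number and height of listed peaks limit precision. Intervals are exact (Clopper-Pearson, 95%), and the limit for a count of 0 is 3 counts of the total. No p-value was computed, because no group compared has replicates of 1 line. Only 748T and 106A form a group of 2 samples.

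Named were the 10 widest pre-T regions, the 5 tallest, the 10 with most H3K27me3 of 961C, the 3 longest runs, and the 5 nearest to the rule on either side. Windows of 1 Mb were picked once their counts were known. The regions, lists and rules were chosen with earlier results of these data known. The gene table at hand has another build, GRCm38.p6, than the peaks, so which genes lie in a region was not analysed here, and no sequence is shown. Merging and overlap were tested on simulated data: of 5000 simulated regions 429 were planted as pre-T regions without 961C, and 429 were recovered. Python 3.11.15, numpy 2.4.6, pandas 2.3.3 and scipy 1.17.1 were used.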

Additional observations from a re-analysis of the deposited data

How the results depend on the processing

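Each alternative changed 1 choice, and a base shared by all 3 pre-T lines was required as a setting added after seeing the data. The share of regions with H3K27me3 of 961C was above that of regions of all 4 lines in 16 of 17 settings, and the neighbour share was above the background in 9 of 9. The exception was regions under 0.5 kb (0.922%). All settings reuse the same libraries, and the width classes are parts of the main set, so the settings are not independent of each other. With the taller 50% of H3K4me3 peaks of every list, 961C included, the rule gave 485 regions, and 24.7% had H3K27me3 of 961C. These regions can hold a lower 961C H3K4me3 peak and are not a subset of the 1433. The middle of the 3 lines' median covered bases was then 1789 bp, that of their median height percentiles 66.2, and the neighbour share 7.85% (background 4.71%). Under that setting the order of the medians turned in 106A and the SCL-LMO1 line. The 485 regions covered 1893 bp in 106A and 1789 bp in the SCL-LMO1 line. Regions of all 4 lines covered 1807 and 1770 bp. Per-line medians lay below those of regions of all 4 lines in 46 of 48 cases. Without H3K4me3 peaks under 500 bp in any list the values were 922 regions, 19.7%, 1286 bp and percentile 45.6. Short 961C peaks were dropped there too, so these regions can hold one. With the SCL-LMO1 line not required, the H3K27me3 share was 15.2%, the middle median 699.5 bp at percentile 29.9, and the neighbour share 13.8% (background 7.65%). With 748T not required there were 2061 regions and with 106A not required 2370, with H3K27me3 shares of 8.83% and 9.62% in that order. Peaks of a line not required still took part in the merging. The ranges over both were middle medians of 669 to 673 bp at percentiles of 28.4 to 29.4, and neighbour shares of 15.6% to 17.1%, against backgrounds of 8.23% and 9.46% over all merged regions. The middle median was 870 bp with peaks within 1 kb joined, and 833 bp with no 961C peak within 5 kb. The H3K27me3 share was 14.5% with peaks within 1 kb counted, 8.79% with the taller 50% of H3K27me3 peaks, and 6.49% with the 961C list cut to its 4875 tallest peaks (0.719% in regions of all 4 lines). By width it was 25.0% at 4 kb or more, 26.4% from 2 to 4 kb and 4% from 0.5 to 1 kb. The cause of these shifts was not tested. No paired analysis was possible because each line has 1 library per mark and the labels give no replicate numbers. Depth is unknown, so an unlisted 961C peak is not shown to be an absent mark.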
